A study of Mus musculus with 2 samples.

Results

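Barcodes with more than 20% of their counts from mitochondrially encoded genes made up 4205 of the 33213 deposited barcodes of adult mouse testis, 1237 of 16376 in the WT library and 2968 of 16837 in the Nsun7 knockout library. They were chosen by a single measured value, the summed counts of the 13 genes whose symbols begin with mt- over all counts of the barcode, and every barcode above the limit is included. The series compared testes of adult WT mice with testes of adult Nsun7 knockout mice, and its title describes NSUN7 as a protein of the RNA m5C family that lacks catalytic activity and acts in assembly of the sperm flagellum. Each genotype is 1 library of single-cell poly(A) RNA from enzymatically digested testis. The strain, the part of Nsun7 that was removed and the number of animals per library were not given in the sources used here. With 1 library per genotype no difference between genotypes could be tested, and differences between barcodes above and below the limit are described in each library without a test. Intervals below are 95% exact intervals and cover counting error only.

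The mitochondrial genome encodes core subunits of respiratory complexes I, III and IV and of ATP synthase, while the other subunits come from nuclear genes. A limit on the mitochondrial share is a common filter in single-cell work, since the share is known to be raised both in cells that have lost cytoplasmic RNA and in cell types rich in mitochondria. Sertoli cells, the somatic nurse cells of the seminiferous tubule, wrap the developing germ cells in their cytoplasm, secrete cystatins, defensins and clusterin into the tubule, and take up what spermatids shed. Protamines (Prm1, Prm2) and transition proteins (Tnp1, Tnp2) replace histones in condensing spermatids, and their mRNAs are among the most abundant of the testis.

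Nsun7 (chr5:66259897-66298026, + strand, GRCm38), the targeted gene, had 163 counts in the WT members and 103 in the knockout members, or 39.1 (interval 33.3 to 45.6) and 19.4 (15.8 to 23.5) CPM (counts per 1000000 non-mitochondrial counts). The level in knockout members was 2.02-fold (1.57 to 2.61) lower over all members, which come from clusters in different shares in the libraries. Within the Sertoli-like clusters defined below it was 2.85-fold (1.92 to 4.20) lower in cluster 2, 7.80-fold (3.19 to 20.9) in cluster 18 and 3.32-fold (1.54 to 8.52) in cluster 21. In the barcodes at or under the limit the levels were 178 and 41.5 CPM. Which part of the gene these counts come from is not known, so the counts left in the knockout library do not check the deletion. Doublet calls were made for 2.18% of WT and 1.55% of knockout members, against 5.06% and 5.39% of the other barcodes, and were kept. The same barcode name occurred in both libraries 2168 times, and 33 of these names belonged to members in both. The globin genes Hba-a1, Hba-a2, Hbb-bs and Hbb-bt had no count in WT members.

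Above the limit lay 7.55% of WT barcodes (7.15 to 7.97) and 17.6% of knockout barcodes (17.1 to 18.2). The knockout library held the larger share at every limit tried. At 10% the shares were 18.3% and 25.4%, at 30% they were 3.67% and 12.9%, and at 50% they were 0.708% and 4.09%. Above 70% only 11 WT and 61 knockout barcodes remained, and the highest values were 78.2% and 88.1%. The median mitochondrial share of the members was 29.6% in WT (quartiles 23.9% and 38.5%) and 39.1% in the knockout (29.6% and 49.0%), against 1.04% and 0.229% in the rest. No gap in the distribution marks the limit. Between 19% and 20% there were 105 WT and 72 knockout barcodes, of which 64.8% and 61.1% were Sertoli-like (defined below), and between 20% and 21% there were 81 and 86, of which 71.6% and 60.5% were.

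**Figure D1:**
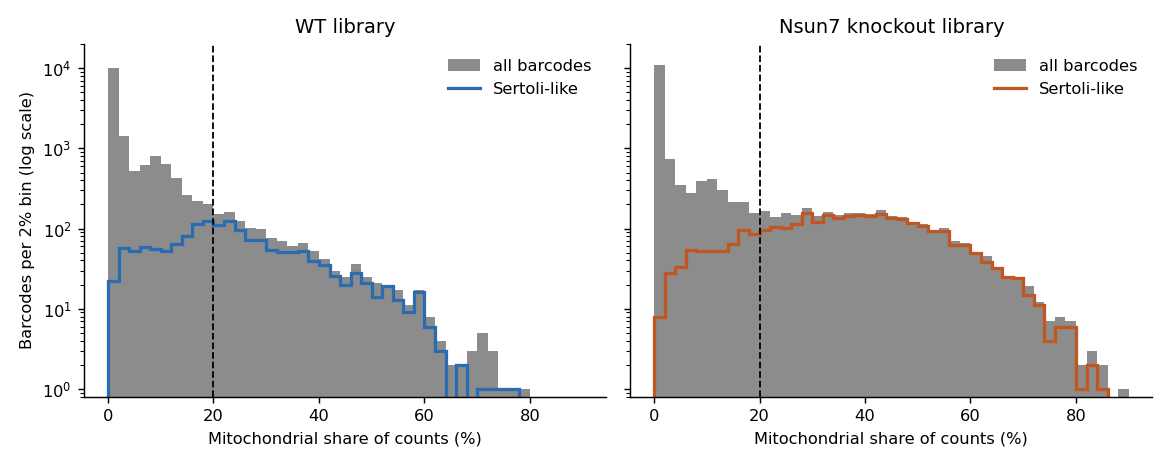
Barcodes per 2% step of mitochondrial share in the WT and knockout libraries (x axis, percent of a barcode's counts, and y axis, number of barcodes), for all barcodes and for Sertoli-like barcodes, with the 20% limit drawn. The 1237 WT and 2968 knockout members lie to the right of the line, on a logarithmic y axis, and Sertoli-like barcodes make up most of each bar from 20% to 60%.

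The members were shallow. Their median total was 2291 counts in WT and 1894 in the knockout, against 8723 and 12020 in the other barcodes, and the lowest total deposited was 1001 counts. The median number of mitochondrial counts was 774 and 779 in members and 87 and 31 in the rest, a difference that the rule itself chose. Non-mitochondrial counts had medians of 1479 and 1108, against 8467 and 11860. Members covered a median of 1070 and 802 non-mitochondrial genes. Thinned to 500 non-mitochondrial counts, they covered a median of 432 and 415 genes, against 423 and 322, with 27 and 98 members left out as too shallow. At equal depth the members thus had at least as many genes as the rest, but the 2 sides hold different cell classes (defined below). Within classes the direction varied. The medians were 433 against 431 (WT) and 415 against 410.5 (knockout) in Sertoli-like and 399 against 380 and 392 against 376 in Leydig-like barcodes. In spermatogonia-like barcodes members were lower, at 434 against 444 and 431 against 441, as in early spermatocyte-like ones (437.5 against 441 and 431 against 432).

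The genes given as markers of these barcodes were checked next. Cst12 and Aard, both abundant in Sertoli cells, stood at 2684 and 2362 CPM (Cst12, WT and knockout) and 2631 and 3154 CPM (Aard) in members. The other barcodes had 67.2 and 39.4 CPM of Cst12 and 78.0 and 53.2 CPM of Aard. Prm2 went the other way: 6145 and 13722 CPM in members, against 23513 and 42350.2 in the rest, so it does not mark the members. The 15 Sertoli markers summed to 2.59% and 2.02% of the members' non-mitochondrial counts, the 10 elongating spermatid markers to 2.28% and 5.45%, and the 9 Leydig markers to 0.108% and 0.140%.

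To see which cells the barcodes come from, all 33213 barcodes were clustered on genes other than the mitochondrial ones and Nsun7, so that the clusters did not use the counts of the rule. Sertoli-like barcodes formed 942 of the 1237 WT members (76.2%, 73.7 to 78.5) and 2583 of the 2968 knockout members (87.0%, 85.8 to 88.2). Spermatogonia-like barcodes came next, with 149 (12%) and 199 (6.70%). Early spermatocyte-like barcodes numbered 68 and 32, Leydig-like barcodes 39 and 38, and late spermatocyte-like barcodes 13 and 6. Elongating spermatid-like barcodes, the most numerous class of both libraries, gave 3 and 20 members, and round spermatid-like barcodes gave 3 and 7. Macrophage-like (3 and 4) and interstitial stroma-like (3 and 1) members were rare, and 0 of the 51 WT endothelial-like and 0 of the 34 WT peritubular myoid-like barcodes passed the limit (upper bounds 6.98% and 10.3%). A further 14 and 78 members lay in clusters left unnamed. All but 1 of these were in cluster 12, which had Sertoli genes (Defb36, Aard, Gatm, Cst12) beside the spermatid gene H2al2a among its leading genes and in which doublet calls were made for 2.67% of WT and 32.3% of knockout barcodes. The naming rule was set after the clusters had been seen, and a difference from the study's own classes may come from these rebuilt names.

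Read the other way, 58.0% of WT Sertoli-like barcodes (55.6 to 60.5) and 83.1% of knockout ones (81.7 to 84.4) were above the limit. No other named class came near these shares. They were 7.89% (6.71 to 9.20) and 19.2% (16.9 to 21.8) for spermatogonia-like, 11.8% (9.30 to 14.8) and 16.4% (11.5 to 22.4) for early spermatocyte-like, and 10.1% (7.27 to 13.5) and 9.34% (6.69 to 12.6) for Leydig-like barcodes. The intervals of WT and knockout were apart for the Sertoli-like and spermatogonia-like classes and overlapped for the early spermatocyte-like and Leydig-like classes. They hold counting error only and are wider in the smaller classes, so their overlap does not sort the classes by an effect of genotype. Knockout barcodes numbered 3109, 1035, 195 and 407 in these classes. Late spermatocyte-like (0.302% and 0.407%), round spermatid-like (0.198% and 0.613%) and elongating spermatid-like barcodes (0.0651% and 0.242%) were almost all under the limit. Among knockout members the Sertoli-like share was 72.1% from 20% to 30%, 90.9% from 30% to 40%, 94.3% from 40% to 50% and 92.3% above 50%, while the spermatogonia-like share was 16.6%, 5.48%, 2.22% and 1.31%. Among WT members the Sertoli-like share was 75.2%, 75.8%, 82.3% and 74.1% and the spermatogonia-like share 11.5%, 13.5%, 10.8% and 12.9%, with no order along the mitochondrial share. The median mitochondrial share was 22.3% and 36.8% in the Sertoli-like, 9.83% and 11.8% in the spermatogonia-like and 9.73% and 11.2% in the Leydig-like class.

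**Figure D2:**
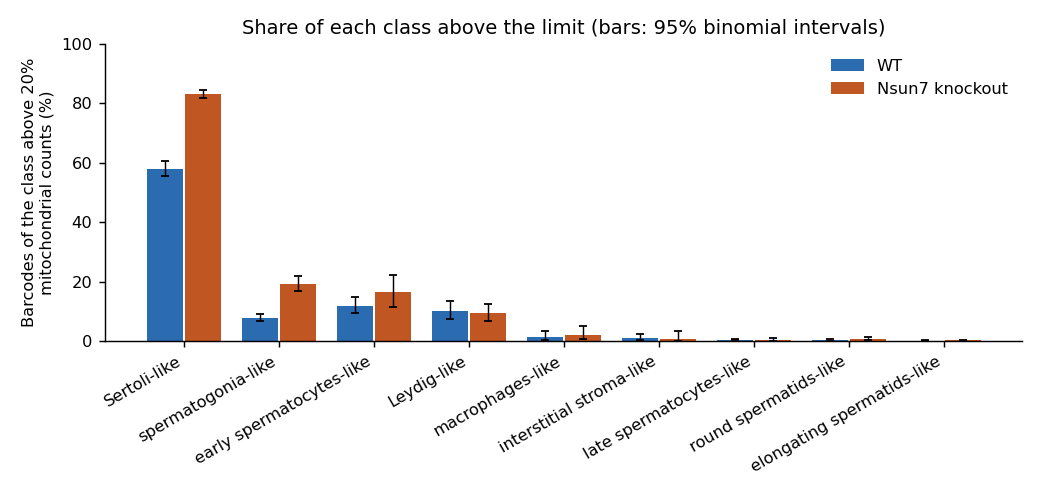
Share of each class above 20% mitochondrial counts (percent of the class's barcodes) in the WT and knockout libraries, with exact Clopper-Pearson intervals. Sertoli-like barcodes stand at 58.0% and 83.1%, and spermatogonia-like, early spermatocyte-like and Leydig-like barcodes lie between 7.89% and 19.2%.

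The Sertoli-like class was made of 3 clusters that split the libraries differently. Cluster 2, led by the defensin genes Defb36 and Defb19, Aard, Gatm (an enzyme of creatine synthesis) and the cystatin genes Cst9 and Cst12, held 496 WT and 2003 knockout members. Cluster 18, led by the homeobox genes Rhox5 and Rhox8, held 140 and 503. Cluster 21, led by Clu (clusterin, a secreted glycoprotein), Ctsl (a lysosomal protease), Cst9, Cst12 and Amhr2 (the receptor of anti-Müllerian hormone), held 306 and 77. Clusters 2 and 18 were shallow, with median totals of 1706 and 1839 counts and 1712 and 1768 counts, and cluster 21 was deep, with 9945 and 12413. In WT, cluster 21 gave 32.5% of the Sertoli-like members but 74.0% of their non-mitochondrial counts. In the knockout it gave 2.98% of them and 18.3% of the counts, and cluster 2 gave 77.5% and 67.1%. A sum over Sertoli-like members is therefore mostly cluster 21 in WT and mostly cluster 2 in the knockout, and gene levels are given by cluster below.

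Within each of the 3 clusters the knockout library had the larger share above the limit. The shares were 50.8% (47.6 to 53.9) in WT and 81.8% (80.2 to 83.3) in the knockout for cluster 2, and 70.4% (63.5 to 76.6) and 89.8% (87.0 to 92.2) for cluster 18. For cluster 21 they were 68.5% (63.9 to 72.7) and 76.2% (66.7 to 84.1), with intervals that overlap. Mitochondrial and other counts did not move alike in the clusters. In cluster 2 the median mitochondrial count was 546 in WT members against 214 under the limit, and 714 against 265 in the knockout, while non-mitochondrial counts were lower in members (1154 against 1532, and 1081 against 1864). In cluster 21 the mitochondrial count of WT members was close to that under the limit (2530 against 2412), and that of knockout members was higher (3783 against 3001). The other counts there were far lower in members (6306 against 12097 in WT, and 7965 against 13146 in the knockout).

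Whether Sertoli-like barcodes look more or less frequent in the knockout library turned on the limit. Over all deposited barcodes they were 9.91% of the WT and 18.5% of the knockout library, and among barcodes at or under 20% they were 4.50% and 3.79%. The direction was the same under the other ways of naming, with gaps at or under the limit of different size. When an unnamed cluster with Sertoli and spermatid genes was added, the shares were 12.9% and 21.6% of all barcodes, and 7.62% and 7.09% of those at or under the limit. By counts of Cst12, Cst9 and Aard they were 8.32% and 17.2%, and 3.37% and 3.01%. With each library clustered on its own they were 10.1% and 19%, and 4.67% and 4.22%. At Leiden resolution 2 they were 11% and 20.3%, and 5.67% and 5.56%, so that the shares at or under the limit were nearly equal. These are shares of recovered barcodes, and fewer cells of a type cannot be told apart from fewer recovered barcodes of it.

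The makeup of the mitochondrial counts, which the rule used as a sum, is given as a description. For mt-Co1 and mt-Atp6 it differed more between Sertoli-like and spermatogonia-like members than between the libraries. In Sertoli-like members mt-Co1, a catalytic subunit of cytochrome oxidase, gave 31.3% and 31.2% of the mitochondrial counts (WT and knockout), and in spermatogonia-like members 25.8% and 25%. mt-Atp6, a subunit of ATP synthase, gave 14.6% and 13.5% in Sertoli-like and 20.4% and 19.4% in spermatogonia-like members. Per kilobase of gene, mt-Atp6 held 19.9% and 18.6% of the summed mitochondrial counts per kilobase in Sertoli-like members and 26.6% and 25.6% in spermatogonia-like members, and mt-Co1 held 18.8% and 19% and 14.8% and 14.5%. Leydig-like members had mt-Co1 at 30.0% and 30.0% and mt-Nd4, a complex I subunit, at 7.49% and 8.08%, against 5.14% and 5.89% in Sertoli-like members. Sertoli-like barcodes at or under the limit had nearly the same makeup, with mt-Co1 at 32.2% and 31.8% and mt-Atp6 at 14.4% and 13.4%. The subunit encoded on the other strand, mt-Nd6, gave only 0.0488% and 0.0508% of Sertoli-like members' mitochondrial counts.

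mt-Atp8 was lower in the knockout library in all 3 classes, at 0.646% and 0.439% of mitochondrial counts in Sertoli-like, 0.873% and 0.534% in spermatogonia-like and 0.601% and 0.378% in Leydig-like members. The genes mt-Atp8 (chrM:7766-7969) and mt-Atp6 (chrM:7927-8607) overlap and share a transcript, as do mt-Nd4l and mt-Nd4, so the split of counts within each pair is uncertain. mt-Nd4l had only 57 and 86 counts over all Sertoli-like members.

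**Figure D3:**
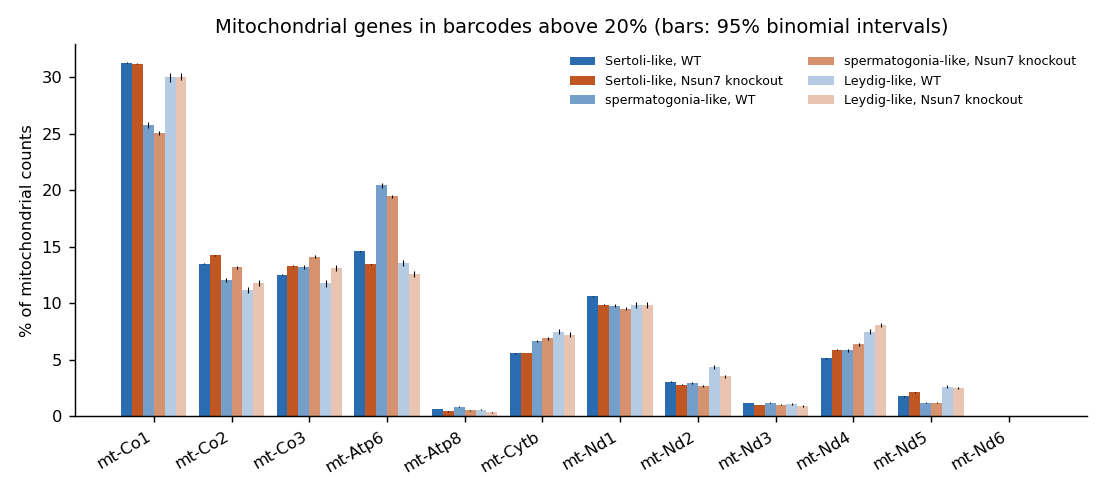
Percent of mitochondrial counts (y axis) from each mitochondrially encoded gene except mt-Nd4l in Sertoli-like, spermatogonia-like and Leydig-like members of both libraries, with exact binomial intervals. mt-Co1 is lower and mt-Atp6 higher in spermatogonia-like than in Sertoli-like members, and the WT and knockout bars of a class lie close together for both.

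Nuclear genes were then compared between members and barcodes at or under the limit, within a class and within each library, counting a gene where both libraries put it at least 2-fold apart on CPM of non-mitochondrial counts plus a prior of 5 CPM (genes averaging at least 50 CPM). Over the whole Sertoli-like class 14 of 4497 genes (0.311%) were higher in members and 116 (2.58%) were lower. By cluster the counts were far apart: 380 of 4068 genes (9.34%) higher and 189 (4.65%) lower in cluster 2, 618 of 3467 (17.8%) and 125 (3.61%) in cluster 18, and 4 and 4 of 4905 (0.0815% each) in cluster 21. Each gene was also counted without its highest barcode on the side where it was higher, which can only lower the counts. The Sertoli-like class then had 10 higher and 40 lower genes, and cluster 2 had 330 and 96. Cluster 18 had 474 and 25, and cluster 21 had 1 and 0. Scaling by a trimmed mean of the genes would shift the Sertoli-like log2 ratios down by 0.09 in WT and 0.28 in the knockout, and then 4 genes were higher and 275 lower over the class. The genes counted thus lay mostly in the shallow clusters 2 and 18, where the 2 sides were also farther apart in mitochondrial share. Its medians were 29.7% against 11.9% (WT) and 38.6% against 13.2% (knockout) in cluster 2, and 40.7% against 9.70% and 51.1% against 12.2% in cluster 18. In cluster 21 they were 26.7% against 17.6% and 29.9% against 16.4%. The part of this narrower contrast in the counts was not tested.

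In cluster 2 many genes expressed by Sertoli cells, but not all, were higher above the limit. Cst12 and Aard had been picked as markers of these barcodes from the same data, so their direction is a description. Aard (chr15:52040107-52045722, + strand) stood at 3385 CPM in WT members and 3954 in knockout members, against 1349 and 1299 CPM at or under the limit. The ratio was 2.51-fold (2.37 to 2.66) in WT and 3.04-fold (2.91 to 3.18) in the knockout. Cst12 (chr2:148789361-148793546, + strand) stood at 2399 CPM in WT members and 3022 in knockout members, against 1034 and 1061 CPM, and the defensin gene Defb19 at 3721 CPM in WT members and 5099 in knockout members, against 1425 and 1635 CPM. Both libraries put the members higher, with Cst12 at 2.32-fold (2.17 to 2.48) and 2.85-fold (2.71 to 2.99) and Defb19 at 2.61-fold (2.47 to 2.76) and 3.12-fold (3.0 to 3.24). Rhox5 (chrX:37804842-37808876, + strand), an androgen-regulated homeobox gene of Sertoli cells, had 266 CPM in WT members and 290.2 in knockout members, against 72.7 and 67.2 CPM, a difference of 3.65-fold (2.89 to 4.63) and 4.32-fold (3.58 to 5.26). The list of Sertoli secreted products and receptors had 12 of its 24 measured genes past the 2-fold rule upward and 0 downward, with median log2 ratios of 1.08 and 1.39 against 0.00 and 0.03 over all genes tested. Of all genes tested in cluster 2, 9.34% were past the rule upward and 4.65% downward. The 10 genes ranked highest in members were Defb45 (4.71-fold, 3.83 to 5.81 in WT and 4.57-fold, 3.90 to 5.37 in the knockout), Myo3a (an unconventional myosin), Uchl1 (a deubiquitinase, 755 and 819 CPM against 206 and 189.7), Rhox5, Txn1 (thioredoxin), Siva1, Rpa3, Slc48a1, Cdc42ep5 and Nme2, with log2 ratios from 1.64 to 2.29.

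Not every Sertoli gene followed. Clu and Ctsl, which lead cluster 21, were less than 2-fold apart in cluster 2: Clu was 1.28-fold (1.21 to 1.36) and 1.66-fold (1.59 to 1.73) higher in members, and Ctsl 1.46-fold (1.34 to 1.58) and 1.91-fold (1.8 to 2.03). Cst8, a cystatin gene of the testis, had the lowest ratio of the list, with 388 CPM in WT members and 387 in knockout members, against 356 and 588 CPM. Sox9, the Sertoli cell transcription factor, had 58.4 CPM in WT members and 85.7 in knockout members, against 62.2 and 45.3 CPM, so that the 2 libraries differed in direction. The list of junction genes of the blood-testis barrier, which also holds the filament gene Vim, had 7 measured genes. Their medians were 0.55 and 1.10, with 0 genes past the rule in both libraries. Vim, the intermediate filament of Sertoli cells, was the highest of them at 0.90 and 1.15 (log2), and the gap junction gene Gja1 the lowest at 0.35 and 0.23.

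Some nuclear genes of the respiratory chain were also past the rule in cluster 2 members, where 9.34% of all genes were past it upward and 4.65% downward. Complex I had 6 of 36 measured subunits past the 2-fold rule upward and 0 downward (medians 0.54 and 0.75, against 0.00 and 0.03 over all genes), and complexes III to V had 7 of 34 and 0 (0.65 and 0.94). Ndufa3, a complex I subunit, stood at 418 CPM in WT members and 478 in knockout members, against 144 and 131 CPM, Cox8a, a cytochrome oxidase subunit, at 358 CPM in WT members and 473 in knockout members, against 134 and 129 CPM, and Cycs, somatic cytochrome c, at 872 CPM in WT members and 961 in knockout members, against 326 and 305 CPM. The 40 ribosomal protein genes, used for comparison, had medians of 0.50 and 0.71 with 3 past the rule, so nuclear respiratory genes stood only slightly above ribosomal ones. Germ cell forms of these proteins were listed apart. Of 6 testis respiratory isoforms 0 were higher and 1 was lower, with medians of -0.92 and -1.04. Cox6b2 had 150.0 CPM in WT members and 87.1 in knockout members, against 311 and 214 CPM, and Cox8c 385 CPM in WT members and 188 in knockout members, against 749.6 and 476 CPM. Among genes of mitophagy and apoptosis 3 of 8 were past the rule upward (medians 0.40 and 0.56), led by the cell cycle inhibitor gene Cdkn1a (206 and 201 CPM against 55.9 and 64.5). Among mitochondrial chaperones 1 of 9 was, Hspe1, the co-chaperone of Hsp60, a share near that of all genes.

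Of the late spermatocyte markers 3 of 10 were past the 2-fold rule downward and 0 upward in cluster 2 members, with medians of -0.79 and -1.03, where 4.65% of all genes were past it downward. In this cluster doublet calls were made for 0.403% of WT and 0.599% of knockout members, against 8.73% and 8.31% at or under the limit. The part of doublets in the cluster 2 ratios was not tested. Ccna1, the cyclin of male meiosis, had 90.3 CPM in WT members and 36.0 in knockout members, against 218 and 152 CPM, and Clgn, a germ cell chaperone of the endoplasmic reticulum, 255 CPM in WT members and 134 in knockout members, against 720.4 and 464 CPM. The 10 genes ranked lowest were Plk1 (a mitotic kinase, 3.68-fold, 2.49 to 5.62 and 4.71-fold, 3.46 to 6.51 lower), Rbm44, Slc22a21, Dnaic2, Arc, Ccdc96, Dydc1, Pxt1, Crybg3 and Clgn, with log2 ratios from -2.13 to -1.48. Protamine mRNA stayed high on both sides of the limit. Prm1 stood at 12047 CPM in WT members and 16996 in knockout members, against 15682 and 34602 CPM, and Prm2 at 11078 CPM in WT members and 14775 in knockout members, against 16414 and 27924 CPM. Tnp1 differed in direction between the libraries, at 10789 CPM in WT members and 12700.3 in knockout members, against 9094 and 20784 CPM. Leydig-like barcodes, which should lack protamine mRNA, held 2891 and 4393 CPM of Prm1 above the limit and 4998 and 6925 under it. Those up to 10% mitochondrial share held 6525 and 13647 CPM. The levels on the 2 sides are below those in cluster 2. But Leydig-like barcodes were deeper, with medians of 2272 and 3624 non-mitochondrial counts above the limit and 9070.5 and 12060 under it. The CPM therefore do not compare Prm1 counts per barcode. The reverse check, Cyp17a1 of Leydig cells in cluster 2 members, gave 46.5 and 85.3 CPM. The part that RNA free in the suspension had in the cluster 2 values was not tested.

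Levels were also read in steps of the mitochondrial share. In cluster 2 the sum of Cst12, Cst9, Aard, Defb19, Rhox8 and Tsx was 0.338% of non-mitochondrial counts in WT barcodes up to 10%, 0.921% from 10% to 20%, 1.33% from 20% to 30% and 1.30% above 50%. In the knockout it was 0.337%, 0.895%, 1.40% and 1.85% in the same steps. In WT the level was nearly flat above 20%, while in the knockout it was higher still from 30% to 40% (1.83%) and from 40% to 50% (1.93%). Protamine and transition protein mRNA did not run in a single direction. In the knockout it was 9.36% up to 10%, 9.72% from 10% to 20%, 6.68%, 4.62% and 4.34% in the next steps, and 4.79% above 50%. In WT it was 4.39%, 5.0%, 4.18%, 3.71%, 3.54% and 3.97% in the same steps. Nuclear respiratory genes were higher in each step than in the one before, from 1.02% to 2.55% in the knockout and from 1.30% to 2.56% in WT. The steps held 25 to 281 WT and 146 to 597 knockout barcodes. The median of non-mitochondrial counts was 1941 and 3391 in the first step and 967 and 950 in the last, so depth moves with these values and its part in them was not tested.

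**Figure D4:**
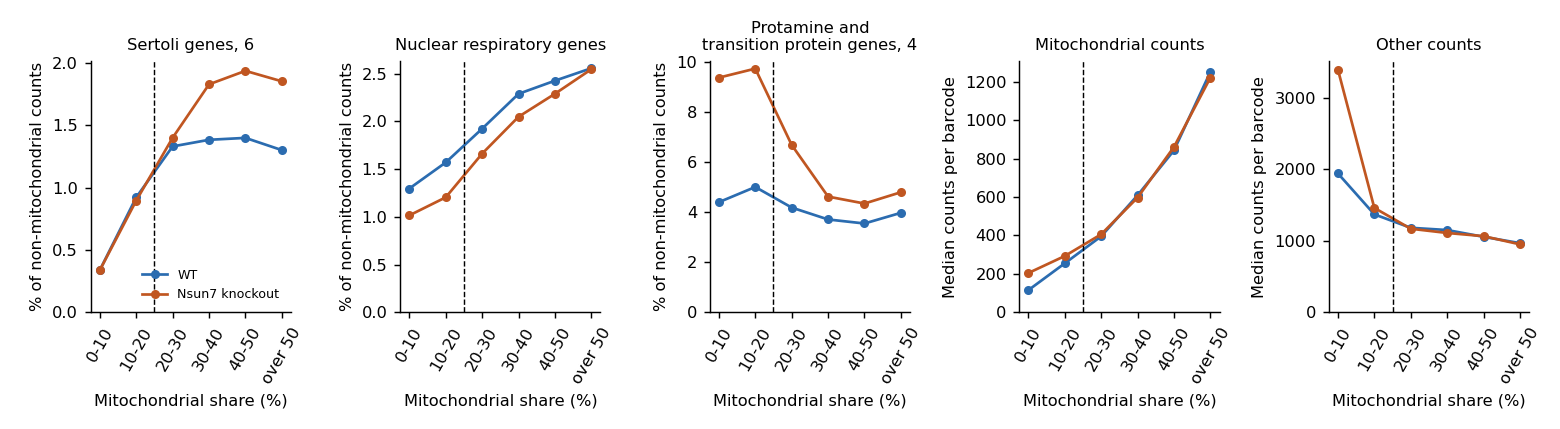
Percent of non-mitochondrial counts from the 6 Sertoli genes, protamine and transition genes, nuclear respiratory genes and the medians of mitochondrial and other counts per barcode, in cluster 2, by step of mitochondrial share, in the WT and knockout libraries. Sertoli genes are lowest in the step up to 10% (0.338% and 0.337%) and level off above 30%, and knockout protamine and transition mRNA is highest below 20%.

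In cluster 18 the median over all genes tested was itself above 0, at 0.17 in WT and 0.64 in the knockout (log2), and list medians are to be read against these. Of all 3467 genes tested there, 17.8% were past the rule upward and 3.61% downward, and list counts are to be read against these shares. Sertoli products had 12 of 21 genes past the rule upward and 0 downward (medians 1.20 and 1.96), complex I 14 of 32 and 0 (0.96 and 1.53), complexes III to V 14 of 34 and 0 (0.97 and 1.68), and ribosomal proteins 13 of 40 and 0 (0.81 and 1.17). Rhox5 stood at 1108 CPM in WT members and 1829.6 in knockout members, against 481 and 376 CPM, and Rhox8 at 1895 CPM in WT members and 2381 in knockout members, against 641 and 485 CPM. Protamines and transition proteins had 3 of 7 past the rule downward (medians -0.90 and -1.37). Prm2 stood at 17414 CPM in WT members and 21232 in knockout members, against 52736 and 53044 CPM. Named by rank, the genes highest in members included Myo3a, Hsd17b1 (a steroid dehydrogenase), Polr2l, Hist1h2bc and Rbm3, and the lowest included the spermatid genes H2al2a, Defb33 and Spem1. Many rest on few counts: Hsd17b1 had 1 WT and 3 knockout counts under the limit, and its WT ratio of 26.8-fold (4.34 to 1108) is not a precise one. Hist1h2bc, a histone gene, had a tighter ratio of 5.39-fold (2.84 to 11.1) in WT and 6.14-fold (3.8 to 10.6) in the knockout. The cluster had only 59 WT and 57 knockout barcodes at or under the limit. Of these, 5.08% and 24.6% were called doublets, against 0.714% and 0.795% of members, and the part of doublets in the ratios was not tested.

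In cluster 21, the deep cluster, few genes differed by 2-fold between members and barcodes under the limit. Clu (10589 and 10738 CPM in members, 9551 and 9584 under the limit), Cst12 (3409 and 2952, against 2812 and 2474) and Sox9 (386 and 328, against 325 and 222) were high on both sides. Sertoli products had 0 of 27 genes past the rule (medians 0.15 and 0.20), complex I 0 of 36 (0.11 and 0.46), complexes III to V 0 of 34 (0.10 and 0.30) and ribosomal proteins 0 of 40 (0.09 and 0.19). The 4 genes higher in both libraries were Id2, an inhibitor of differentiation, Svs5, Drd4, a dopamine receptor, and the predicted gene Gm26917, and the 4 lower were Prm1, Pkib, Cdrt4 and 1700003E24Rik (Gm26917, Cdrt4 and 1700003E24Rik were named after their values were seen). Drd4 stood at 182 CPM in WT members and 252 in knockout members, against 86.7 and 115 CPM, and Rhox5, just short of the rule, at 439 CPM in WT members and 318 in knockout members, against 222 and 167 CPM. Prm1 was the lowest of the protamine list, at 2443 CPM in WT members and 6893 in knockout members, against 5091 and 18471 CPM. A single knockout barcode, which was not called a doublet, held 2390 of the 5380 Prm1 counts of the 77 knockout members in this cluster, and without it their Prm1 level was 3968 CPM. Only 24 knockout barcodes of cluster 21 lay at or under the limit.

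Between knockout and WT members the clusters again have to be read apart. Over the whole Sertoli-like class 233 of 4602 genes (5.06%) were at least 2-fold higher in knockout members and 366 (7.95%) at least 2-fold lower. In cluster 2 the counts were 4 of 4095 (0.0977%) and 113 (2.76%), in cluster 18 they were 104 of 3940 (2.64%) and 280 (7.11%), and in cluster 21 they were 24 of 4954 (0.484%) and 5 (0.101%). Without each gene's highest barcode cluster 18 had 74 and 168 and cluster 21 had 2 and 5. Clu shows how the class and its clusters differ. Over the class it stood at 8429.9 CPM in WT and 4027 in knockout members, but at 2216 and 2490.2 in cluster 2 and 10589 and 10738 in cluster 21. Immediate early and dissociation stress genes had 5 of 11 past the rule downward over the class (median -0.92, against -0.09 over all genes) and 1 of 13 in cluster 21 (median -0.41). Jun was 442 and 85.7 CPM over the class, 37.2 and 12.6 in cluster 2 and 586 and 413 in cluster 21. Egr1 (-2.36), Fosb (-2.36), Ano1 (-2.09) and Rsrp1 (-2.09) had the other lowest log2 ratios of the class. In cluster 21 their ratios were -0.88, -0.82, -0.39 and -0.51. The class sums weight cluster 21 in WT and cluster 2 in the knockout. They gave larger differences for Clu and Jun than clusters 2 and 21 did. For Egr1, Fosb, Ano1 and Rsrp1 they gave larger differences than cluster 21 did. The part of the weighting in these differences was not tested.

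The highest gene of knockout over WT members was the same in the class and in cluster 2. St8sia3, a sialyltransferase gene, had 18.6 CPM (14 counts) in WT and 110.2 CPM in knockout members of cluster 2, 5.93-fold (3.48 to 11) higher in the knockout. The levels were 8.39 and 48.7 CPM in cluster 21 (5.80-fold, 3.35 to 10.3) and 71.1 and 129 CPM in cluster 18 (1.82-fold, 0.984 to 3.66), where the interval reached below 1. Outside the members, cluster 2 barcodes at or under the limit also differed, with 19.3 and 69.3 CPM. The other genes highest in knockout members of cluster 2 were Lima1 (an actin-binding protein, 67.7 and 173 CPM), Tmem255a, Tmem41a and Gata4 (a Sertoli transcription factor, 41.2 and 85.0 CPM), with Gata4 just short of the 2-fold rule.

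Sertoli products themselves were close in the libraries. In cluster 2, 0 of 25 were past the rule in either direction (median 0.30, against 0.01 over all genes), and Cst12 stood at 2399 and 3022 CPM. In the same members the late spermatocyte markers had 4 of 9 past the rule downward and 0 upward (median -0.97), where 2.76% of all genes were past it downward, among them Aurka (113 and 40.6 CPM), a kinase of the meiotic divisions. Trafd1, Taf7l2, Prc1, Snhg4 and Sycp2 (a synaptonemal complex gene, 123 and 42.7 CPM) were the lowest named, with log2 ratios from -1.51 to -1.43. Prm1 stood at 12047 and 16996 CPM, and the elongating spermatid markers had 0 of 10 past the rule (median 0.34). Late spermatocyte-like barcodes were 26.3% of the WT and 8.76% of the knockout library, and elongating spermatid-like barcodes 28.2% and 49.0%. The part of this makeup in the germ cell transcripts of cluster 2 was not tested.

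In the smaller cluster 18 the knockout members had Nsun7 among their 5 lowest genes, at 12.9 CPM (8 counts) against 101 CPM (17 counts) in WT. The others were Adam1b, Dnajc27, Ttc6 and Macrod2, and the highest were S100a11, Epb41l3, Nf2, Map2k3 and Myl6b. S100a11, a calcium-binding protein, rested on 8 WT counts, with a ratio of 3.78-fold (1.85 to 8.97). In cluster 21, 24 genes were higher in knockout members, led by Hspa1l, Prm1, Spata3, Tex35 and H1fnt, all expressed in spermatids. When the single barcode rich in Prm1 was left out, 3 remained past the rule upward and 5 downward, and Hspa1l had a log2 ratio of 1.08 and Prm1 of 0.70, against 1.54 and 1.49 with it. The lowest included Id2 (122 and 46.1 CPM), Fos, Tekt1 and Ndrg4.

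The 149 WT and 199 knockout spermatogonia-like members lay mostly in cluster 4 (132 and 179), led by Ptma, Hmgb2, Ncl, Dazl and Dmrt1. They had a median of 2418 and 3587 counts, against 4669 and 6183 in spermatogonia-like barcodes at or under the limit. Here 82 of 4725 genes (1.74%) were higher and 21 (0.444%) lower in members of both libraries. Malat1 (chr19:5795690-5802672, - strand), a long RNA that stays in the nucleus, stood at 712 CPM in WT members and 506 in knockout members, against 167 and 164 CPM at or under the limit. It was 4.28-fold (3.72 to 4.90) higher in WT and 3.09-fold (2.72 to 3.50) higher in the knockout. Along the mitochondrial share its level went from 134 CPM up to 10% to 232, 581 and 1007 in the next 3 steps of 10% in WT, and from 126 to 202, 459 and 523 in the knockout.

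Lars2, the mitochondrial leucyl-tRNA synthetase gene, followed the same course in spermatogonia-like members, with 249 CPM in WT members and 189.6 in knockout members, against 37.3 and 40.3 CPM. So did Gm42418, a gene model that overlaps the ribosomal RNA repeat, with 13521 CPM in WT members and 9976 in knockout members, against 4359 and 3875 CPM (Gm42418 was singled out after its values were seen). Both were counted in many barcodes: Lars2 in 55 of 149 and 69 of 199, Malat1 in 83 and 116, and Gm42418 in every member. Other genes with high ratios rested on few barcodes. Of 102 WT counts of Ebp, 60 came from a single barcode, and of 45 counts of Parp10, 39 did. Olfr655, Cx3cr1, Pgpep1l, Upb1, Asl, P3h3 and Plxdc1 completed the 10 highest, of which P3h3 (43 and 78 barcodes) and Plxdc1 (32 and 53) were the most spread. When each gene was counted without its highest barcode, 53 genes stayed at least 2-fold higher and 19 lower. On CPM of all counts, which is lower in members by construction, 37 genes were higher and 130 lower.

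Most spermatogonia and early spermatocyte markers were less than 2-fold apart in the spermatogonia-like class. Of all genes tested in this class, 1.74% were past the rule upward and 0.444% downward. Dazl, an RNA-binding protein of germ cells, stood at 881 CPM in WT members and 983 in knockout members, against 1635 and 1606 CPM, and Stra8, the retinoic acid-induced gene of meiotic entry, at 307 CPM in WT members and 357 in knockout members, against 652 and 762 CPM. Stra8 was the only one of 9 measured spermatogonia markers past the 2-fold rule, at 2.13-fold (1.75 to 2.61) lower in WT and 2.13-fold (1.87 to 2.45) in the knockout (list medians -0.29 and -0.26, against -0.08 and -0.05 over all genes). Meioc, which prolongs meiotic prophase, was the only one of 7 early spermatocyte markers, at 57.1 CPM in WT members and 104 in knockout members, against 259 and 299 CPM. Arf2, Cnot6l, Top2b, Ppp1cb, Gdi2, Taf4b, Fnbp1l, Gnptg and Tktl1 were the other lowest, with log2 ratios between -1.73 and -1.10. The class mixes clusters in different shares on the 2 sides. Cluster 14, led by Stra8 and Dazl, gave 10 of the 149 WT and 16 of the 199 knockout members. At or under the limit it gave 514 of 1740 and 276 of 836 barcodes. The part of this mix in the lower levels of Stra8, Meioc and Dazl was not tested. Respiratory genes were less than 2-fold apart in this class: 0 of 37 complex I and 0 of 34 complex III to V subunits were past the rule, and their medians lay between -0.04 and 0.29. Sertoli products had 2 of 5 measured genes past it upward, with Defb19 at 114 CPM in WT members and 163 in knockout members, against 45.7 and 44.8 CPM. Prm1 stood at 4514 CPM in WT members and 6389.6 in knockout members, against 7217 and 16210.5 CPM. Its level did not run in a single direction along the mitochondrial share. In WT it was 9364 CPM up to 10%, then 2899, 3880 and 5198 in the next steps of 10%. In the knockout it was 27353, 5031, 5538 and 7941 CPM in the same steps. The part of RNA from other cells in the Defb19 and Prm1 values was not tested.

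**Figure D5:**
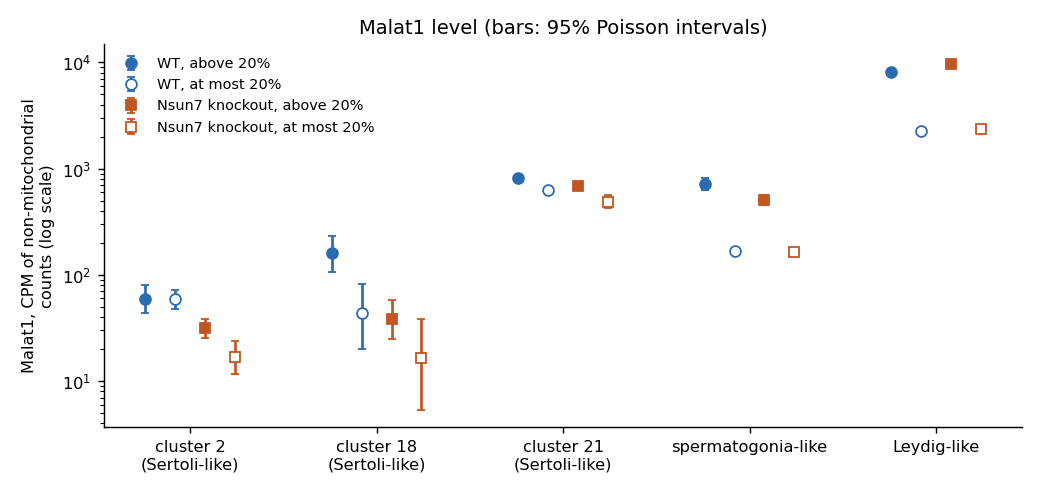
Malat1 level (CPM of non-mitochondrial counts, log axis) with exact Poisson intervals in barcodes above and at most 20% mitochondrial counts, by class or cluster and library. In spermatogonia-like and Leydig-like barcodes the level above the limit is higher in both libraries. It is also higher in both in cluster 18, on 27 WT and 24 knockout counts in members. Clusters 2 and 18 have the lowest levels.

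Between knockout and WT spermatogonia-like members 57 of 4765 genes (1.2%) were at least 2-fold higher and 143 (3%) lower, but the genes at the top hardly describe the members as a group. All but 2 of the 163 knockout counts of Ebi3 came from a single barcode, and 105 of the 124 WT counts of Slc23a3 did. Orai2, Sash1, Prokr2 and Pak6 (higher) and Apobec3, Rcsd1, Tmem231 and Os9 (lower) were the other genes at the ends of the ranking. Of these, Pak6 had its 61 knockout counts in 14 barcodes and Prokr2 its 64 in 4. Without each gene's highest barcode the counts were 34 and 90. Dazl, by contrast, was counted in 99 and 152 barcodes and stood at 881 CPM (783 to 987) in WT and 983 (907 to 1063) in knockout members, with intervals that overlap.

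The 39 WT and 38 knockout Leydig-like members, the steroid-producing cells of the interstitium, were too few for a gene by gene comparison, and a few genes are described. Cyp17a1, an enzyme of androgen synthesis, stood at 12449 CPM in WT members and 13368 in knockout members, against 12182 and 14424 CPM, and Star, which brings cholesterol into mitochondria, at 2679.9 CPM in WT members and 3887 in knockout members, against 2367 and 3022 CPM. Insl3, the Leydig cell hormone gene, whose locus overlaps Jak3 so that the split between them is uncertain, had 3289 CPM in WT members and 4159.9 in knockout members, against 4556 and 5364 CPM. These levels differed by less than 2-fold. Malat1 was again higher above the limit, at 8202 CPM in WT members and 9748 in knockout members, against 2283 and 2342 CPM, or 3.59-fold (3.36 to 3.83) and 4.16-fold (3.96 to 4.38). In cluster 2 it had 59.7 CPM in WT members and 31.5 in knockout members, against 59.0 and 17.1 CPM (1.01-fold, 0.693 to 1.46 and 1.85-fold, 1.22 to 2.86), and in cluster 21 812 CPM in WT members and 688 in knockout members, against 635 and 489.8 CPM. Clusters 2 and 21 were less than 2-fold apart in each library. In cluster 18 Malat1 was also higher in members of both libraries, but on few counts. WT members there held 27 counts, 11 of them in a single barcode, and knockout members held 24. The share of cluster 18 barcodes with a Malat1 count was 10% against 3.39% in WT and 4.57% against 7.02% in the knockout. Levels of Malat1 in members thus ran from 31.5 CPM in knockout cluster 2 to 9748 CPM in knockout Leydig-like members.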

How the data were processed

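Single-cell RNA libraries of adult testis, 1 WT and 1 Nsun7 knockout, were used as matrices of whole-number counts per gene and barcode, deposited by the authors, who made them with PISA 0.12 per the file headers. The build was GRCm38 per the submitters' processing notes. Other upstream steps were not given in the sources used here, and the deposited barcodes start at 1001 counts. The matrices were joined on 30052 gene symbols. Barcodes were scaled to 10000 counts without mt- genes and Nsun7, and clustered (3000 variable genes, 40 components, 20 neighbours, Leiden resolution 1, 31 clusters) with scanpy 1.11.5 and igraph 0.11.9. Doublets were scored with Scrublet. Its automatic threshold called 0 WT and 1156 knockout barcodes, so the highest 5% of scores in each library (793 and 793) were called and kept in the main values. Clusters were named from the markers among their 10 leading genes, by a rule set after the clusters were seen. Clusters led by germ cell and somatic markers together, or with more than 50% doublet calls, stayed unnamed.

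Gene levels are CPM, summed counts per 1000000 non-mitochondrial counts, with exact Poisson intervals. Ratios have exact conditional binomial intervals, and shares have Clopper-Pearson intervals (scipy 1.17.1). Genes averaging at least 50 CPM were counted, with a prior of 5 CPM and a 2-fold rule. No test was run: the genotypes have 1 library each. Genes were named by rule: Nsun7, the mt- genes, class markers, the 10 highest and 10 lowest ratios above against at most 20%, the 5 highest and 5 lowest for knockout against WT, and the extremes and most abundant genes of gene lists. Of the genes so named, 1 is not reported here. The members and lists were chosen with earlier results of these data known. Tested on simulated data for knockout against WT Sertoli-like members (4508 genes), the 2-fold rule found 66 of 66 genes made 3-fold higher, 46 of 46 made 3-fold lower, 0 of 67 made 1.5-fold higher and 0 of 4329 unchanged genes. The simulation drew both libraries from a shared profile with counting error only. It held no spread between barcodes and no difference in cluster mix, so it does not show how often the rule errs on the real sums. Alternatives were other limits, expression minimums, scalings, cluster resolutions, doublet handling and namings.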

Additional observations from a re-analysis of the deposited data

Results flagged for a closer look

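In cluster 18 the round spermatid markers had a median log2 ratio of members over barcodes at or under the limit of -0.80 in WT and 0.65 in the knockout library. Dazl, an RNA-binding protein gene of germ cells, had a ratio of -0.78 in WT and 0.68 in the knockout in cluster 2. The directions were opposite in the libraries, and the difference was not tested.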

How the results depend on the processing

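No paired analysis was possible because each genotype has 1 library. The share of barcodes above the limit was 18.3%, 10.9%, 5.26%, 3.67% and 0.708% of WT and 25.4%, 20.4%, 15.3%, 12.9% and 4.09% of knockout barcodes at limits of 10%, 15%, 25%, 30% and 50%, and 5.05% and 10.2% among barcodes with 2000 or more counts. The median total of WT members was 2003 counts at a limit of 30%. The Sertoli-like share of WT members was 69.0% when named by Cst12, Cst9 and Aard counts (0.3% or more of non-mitochondrial counts). Of knockout members it was 92.5% at 30%, 89.1% at Leiden resolution 2, 88.3% with libraries clustered alone, 89.6% with cluster 12 and 83.6% by those counts. The share of Sertoli-like barcodes above the limit was 28.6% (WT) and 64.7% (knockout) at 30%, 52.2% and 77.4% at resolution 2, 45.3% and 73.0% with cluster 12, 62.6% and 85.6% by those counts, and 84.4% in the knockout without doublet calls. Each of these shares was higher in the knockout library under every setting named.

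Counts of genes past the 2-fold rule depended on the settings. For Sertoli-like members against the rest (14 higher, 116 lower) they were 36 and 183 at 10 CPM, 3 and 38 at 200 CPM, 4 and 275 with trimmed mean scaling, 0 and 517 on CPM of all counts (lower in members by construction), and 1032 and 736 for above 30% against at most 10%. Clusters 2, 18 and 21 alone gave 380, 618 and 4 higher, and clusters 2 and 21 gave 189 and 4 lower. Without each gene's highest barcode 40 were lower. For knockout against WT Sertoli-like members (233 and 366) 94 and 50 passed at 200 CPM, 819 were lower at 10 CPM and 34 higher at 30%, and clusters 2, 18 and 21 gave 4, 104 and 24 higher and clusters 2 and 21 gave 113 and 5 lower. For spermatogonia-like members against the rest (82 and 21) the counts were 283 and 42 at 10 CPM, 14 and 2 at 200 CPM, 37 and 130 on all counts, and 198 and 88 for above 30% against at most 10%, with 53 higher without each gene's highest barcode. For knockout against WT (57 and 143) they were 451 and 780 at 10 CPM, 3 and 4 at 200 CPM, 349 and 421 at 30%, and 34 and 90 without each gene's highest barcode. A minimum of 10 or 200 CPM tests more or fewer genes. The cause of the other shifts was not tested. The cluster, cluster 12, marker count and highest barcode alternatives were chosen after seeing the data. Depth limits genes below about 50 CPM in the smaller sets.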
